A study of Mus musculus with 6 samples.

Results

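The genes described here are Hmox1 and 9 further genes of antioxidant defence, measured by RNA sequencing in CD4-CD8+ TCRβhigh T cells of WT and BIT mice. They are Hmox1, Nfe2l2, Keap1, Nqo1, Gclc, Gclm, Txnrd1, Prdx1, Srxn1 and Nnt, taken by symbol, and the 2 identifiers that the table gives for Nnt were summed. All 10 were in the table of 78275 identifiers, and 8 of them passed the filter on low counts that left 16104 genes for testing. The genes were chosen by their place in the pathway and with their BIT against WT fold changes in these libraries already known, so that their differences between the genotypes are given as a description, without a test. The study asked, with these libraries, how peripheral CD8+ T cells of BIT mice differ in gene expression from those of WT mice.

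WT mice were C57BL/6 animals. BIT mice were homozygous for an allele in which the sequence encoding β5t (Psmb11), the catalytic subunit of the thymoproteasome, stands in the place of that encoding β5i (Psmb8), the corresponding subunit of the immunoproteasome. The allele is carried in the germ line and acts wherever the Psmb8 locus is active, not in T cells alone. Most experiments of the study used 1 of its BIT lines, and which C57BL/6 substrain the 6 mice belonged to is not stated in the sources used here. The paper's methods name both The Jackson Laboratory and Charles River Laboratories as suppliers of C57BL/6 mice, without assigning either to these libraries. Each group held 3 male mice of 9 to 10 weeks, per the labels, with 1 library per mouse. The cells were sorted to a stated purity above 98% from lymph nodes, and the labels' protocol also names spleens. In the paper's methods that purity belongs to the sort for TCR sequencing, and none is given for RNA sequencing. The paper's reporting summary gives a lower figure for sorted cells.

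NRF2, encoded by Nfe2l2, is the transcription factor that turns on antioxidant genes when electrophiles or oxidants are present. KEAP1 holds NRF2 to a CUL3 ubiquitin ligase, so that the proteasome degrades it under resting conditions. Freed NRF2 pairs with small MAF proteins at antioxidant response elements, where BACH1 represses Hmox1 until haem binds it. Hmox1 encodes haem oxygenase 1, which opens haem into biliverdin, carbon monoxide and iron, and it is known for high expression in the macrophages of the spleen that recycle red cells. T cells use the glutathione and thioredoxin arms of the same system during activation and growth.

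The DNA around the starts of these genes is shown because the elements through which NRF2 and BACH1 act are short and can be read directly. In GRCm39, with Gencode M39 starts, Hmox1 lies at chr8:75820241-75827217 on the plus strand, with 5 exons in its canonical transcript. The stress response element GCTGAGTCA, a site of MAF-containing complexes, was searched on both strands in the 12000 bases before and the 50 bases after each start, a window chosen with the known distant enhancers of Hmox1 in mind. It occurred in 16.5% of 21757 protein-coding genes at least once, in 1.66% at least 2 times and in 0.175%, or 38 genes, at least 3 times. Hmox1 held 4 matches, Gclc and Prdx1 held 2 each, Nnt held 1, and the other 6 genes held none in this window. The letters were settled on after longer forms of the element had been seen, so nothing is read from these counts beside the shares. Of the 4 matches of Hmox1, 3 lay close together, from 9664 to 9607 bases before the start. The matches of Hmox1 and Gclc follow 5′ to 3′, with the motif in capitals and 10 bases on each side.
Hmox1, 9664 bases before the start, chr8:75810567-75810595, plus strand: tgccttttctGCTGAGTCAaggtccgggg
Hmox1, 9636 bases before the start, chr8:75810595-75810623, plus strand: gctgtgtgacGCTGAGTCAcggtcccgag
Hmox1, 9607 bases before the start, chr8:75810624-75810652, plus strand: gtctgttttcGCTGAGTCAtggttcccgt
Hmox1, 3863 bases before the start, chr8:75816368-75816396, plus strand: gacagattttGCTGAGTCAccctctgttc
Gclc, 3770 bases before the start, chr9:77658017-77658045, plus strand: cgcgcagagtGCTGAGTCAcggtgaggcg
Gclc, 1997 bases before the start, chr9:77659790-77659818, plus strand: cagctgtcctGCTGAGTCAtgcaggtgta

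The looser core of the antioxidant response element, TGACNNNGC, was searched on both strands in the 250 bases before and 50 bases after each start. The reverse complement of GCTGAGTCA always matches this core, so the searches overlap, and 1 of the matches of Prdx1 was found by both. The core occurred in 12.5% of the 21757 promoters and in 4 of the 10 genes, namely Gclm, Txnrd1, Prdx1 and Srxn1. In the wider window of 12000 bases before and 50 bases after the start, all 10 genes held it, beside 96.2% of the 21757. The 4 matches in the narrower window were all on the minus strand, and that of Srxn1 lay after the start.
Gclm, 54 bases before the start, chr3:122039062-122039090, minus strand: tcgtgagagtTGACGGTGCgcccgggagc
Txnrd1, 65 bases before the start, chr10:82694938-82694966, minus strand: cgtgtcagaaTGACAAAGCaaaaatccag
Prdx1, 78 bases before the start, chr4:116542653-116542681, minus strand: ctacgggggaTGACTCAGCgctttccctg
Srxn1, 28 bases after the start, chr2:151947462-151947490, minus strand: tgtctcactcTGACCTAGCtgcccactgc
These matches describe the letters of the reference genome, and binding of any factor was not measured in these libraries.

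**Figure D1:**
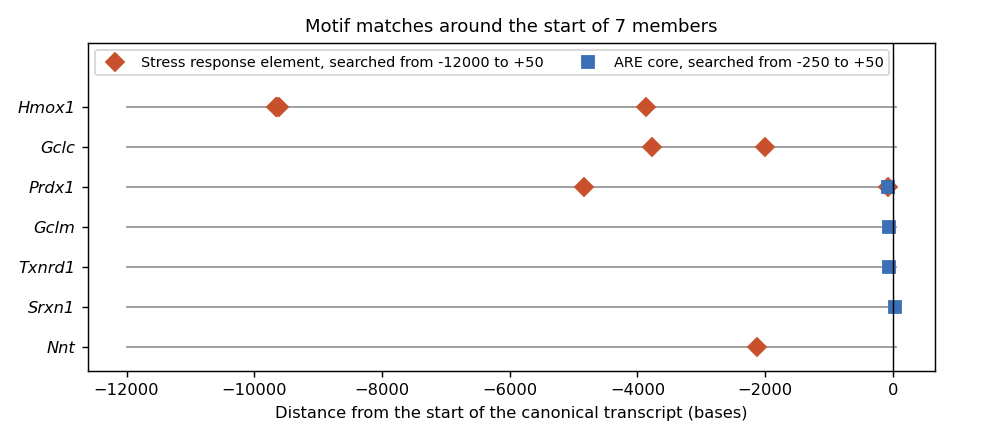
Positions of motif matches along the gene's own strand, with the distance in bases from the start of the canonical transcript on the horizontal axis and 1 line per gene. The stress response element matches of Hmox1 and Gclc lie between 1997 and 9664 bases before the start, 3 of those of Hmox1 on top of each other at this scale, and the core matches of Gclm, Txnrd1, Prdx1 and Srxn1 lie within 78 bases of it.

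Total counts per library were between 37467678 and 52922675, so that 3 counts, the most that a count of 0 allows, correspond to 0.0567 to 0.0801 CPM, the read count scaled to library size. Psmb8 was at 8024 to 10790 counts in the WT libraries and 59 to 73 in the BIT libraries, and Psmb11 was at 0 in WT and 1226 to 1926 counts in BIT, as the labels give the genotypes. WT replicate 3 and BIT replicate 3 stood apart from the other libraries on the first principal component, which held 34.4% of the variance, at 54.5 and 28.6 against -36.5 to -3.30 in the other 4. WT replicate 3 also held 66626 counts of Xist, the RNA of the inactive X chromosome, against 2 to 125 in the other 5, which goes against its male label. Results for Hmox1 and Nnt are therefore also given without each of these libraries and with replicates 1 and 2 alone. Markers of CD8 T cells summed to 4399 to 5250 CPM in WT and 4596 to 5363 CPM in BIT. Of the 16104 genes, 23 were at an adjusted p below 0.05 by limma-voom (0.143%), 14 higher and 9 lower in BIT, and the median log2 fold change over all genes was 0.01.

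Levels were first compared between the genes, as CPM per kilobase of the canonical transcript averaged over the 6 libraries. These bulk levels also hold RNA of any other cells in the libraries. Prdx1 was the highest, at 33.0 CPM per kilobase, and its lowest library, at 26.8, lay above the highest library of Keap1, at 23.7. Keap1 (21.5), Txnrd1 (19.6) and Nfe2l2 (16.0) came next, and the ranges of neighbours in this order overlapped. Gclc followed at 11.0 CPM per kilobase, with a highest library of 12.5 against a lowest of 14.3 for Nfe2l2. Nnt (4.79), Hmox1 (4.41) and Gclm (2.12) were lower still, and Srxn1 and Nqo1 were both near 0.017 CPM per kilobase. On this scale the order of Hmox1 and Nnt differed between the genotypes. Hmox1 was at 5.65 ± 0.663 and Nnt at 3.62 ± 0.0454 CPM per kilobase in WT (SD, n = 3), whereas in BIT they were at 3.17 ± 0.351 and 5.97 ± 0.264. In CPM, not divided by length, Nnt was above Hmox1 in both, at 13.4 against 8.91 in WT and 22.1 against 4.99 in BIT. The order thus depends on the lengths used, 1577 bases for Hmox1 and 3709 for the summed Nnt identifiers. The latter is the length of 1 transcript of ENSMUSG00000025453.

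Between the genotypes, Hmox1 was lower in every BIT mouse than in every WT mouse, with a log2 fold change of -0.80, and Nnt was higher in every BIT mouse, with 0.73. In the remaining 6 members tested the groups overlapped, and their log2 fold changes lay between -0.17 and 0.06. Groups without overlap were seen in 13.3% of all genes tested, 5.97% with all BIT libraries lower and 7.38% with all BIT libraries higher. Of the 8 members tested, Hmox1 was in the first of these sets and Nnt in the second. Nnt was 1 of the 23 genes at an adjusted p below 0.05, against a background of 0.143% (0.0869% higher and 0.0559% lower in BIT), and no other member was. Since the members were chosen with this contrast known, nothing is read from these counts. The median log2 fold change over the 8 members was -0.05.

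**Figure D2:**
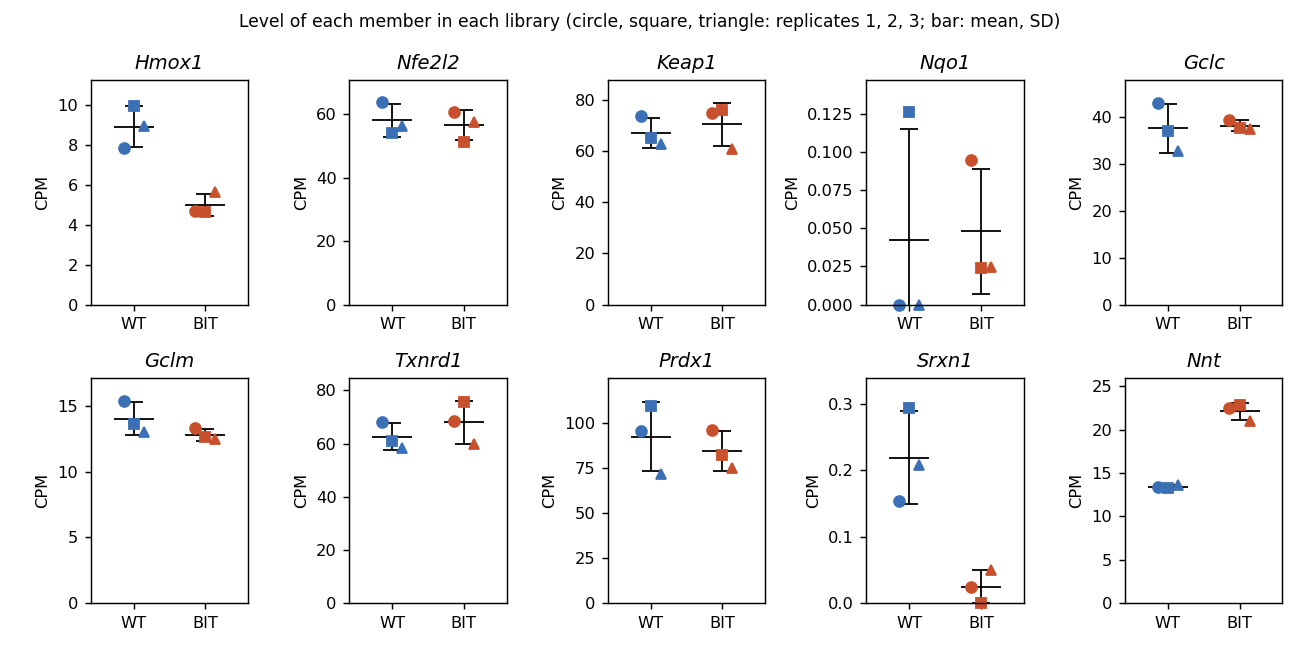
Level of each of the 10 genes in each of the 6 libraries, in CPM on a linear axis from 0, with WT and BIT side by side, replicates 1, 2 and 3 as circle, square and triangle, and the bar and error bar giving the mean and SD of 3 mice. Hmox1 separates the groups downward in BIT (8.91 against 4.99 CPM) and Nnt upward (13.4 against 22.1 CPM), whereas Srxn1 and Nqo1 lie near 0.

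Hmox1 was at 407, 474 and 385 counts in WT replicates 1 to 3 and at 198, 194 and 227 counts in BIT replicates 1 to 3. Every BIT library was below every WT library. In normalised terms the level was 8.91 ± 1.04 CPM in WT and 4.99 ± 0.553 CPM in BIT (SD, n = 3 each), and the BIT mean was 56.0% of the WT mean. The fitted log2 fold change was -0.80 (SE 0.158), and 3.62% of all genes tested had a lower one. It was -0.82 without WT replicate 3, -0.85 without BIT replicate 3 and -0.89 with replicates 1 and 2 alone. No other gene annotated in Gencode M39 overlaps Hmox1, so its counts share no locus with another gene of that release.

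Markers of macrophages and monocytes moved with Hmox1 across the libraries. The list held 15 genes, among them Csf1r, the receptor for the macrophage growth factor, the complement genes C1qa, C1qb and C1qc, and Spic, a transcription factor of the red pulp macrophages of the spleen. Their summed level was 32.0, 45.4 and 37.6 CPM in WT replicates 1 to 3, and 20.7, 20.9 and 25.7 CPM in BIT replicates 1 to 3. The summed level was thus lower in every BIT library than in every WT library, and the ratio of the means was 0.585. The most abundant of the 15 was Vcam1, at means of 9.36 CPM in WT and 5.52 CPM in BIT. It is an adhesion gene that the paper also describes in cortical thymic epithelial cells. Of the 13 markers tested, 12 had a negative log2 fold change and 1, Cd163, a value of 0.03, with a median of -0.60. By limma-voom 0 of the 13 were at an adjusted p below 0.05, whereas 5 were at an unadjusted p below 0.05, all lower in BIT, beside 4.31% of all genes tested. The groups did not overlap for 6 of them, all lower, beside 5.97% of all genes tested. None of the 15 was at 0 in all libraries, and Fcgr1 was at 0 counts in BIT replicates 2 and 3.

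Set against these markers, Hmox1 was nearly level between the genotypes. There were 24.5, 21.9 and 23.8 Hmox1 counts per 100 macrophage marker counts in WT replicates 1 to 3, and 22.7, 22.3 and 21.9 in BIT replicates 1 to 3. The means were 23.4 ± 1.36 in WT and 22.3 ± 0.385 in BIT (SD, n = 3 each), and the groups overlapped. In bulk RNA, fewer cells of a type and less RNA per cell cannot be told apart, and neither can the T cells' own Hmox1 RNA be separated here from that of other cells. The part of the macrophage markers in the Hmox1 difference was not tested.

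**Figure D3:**
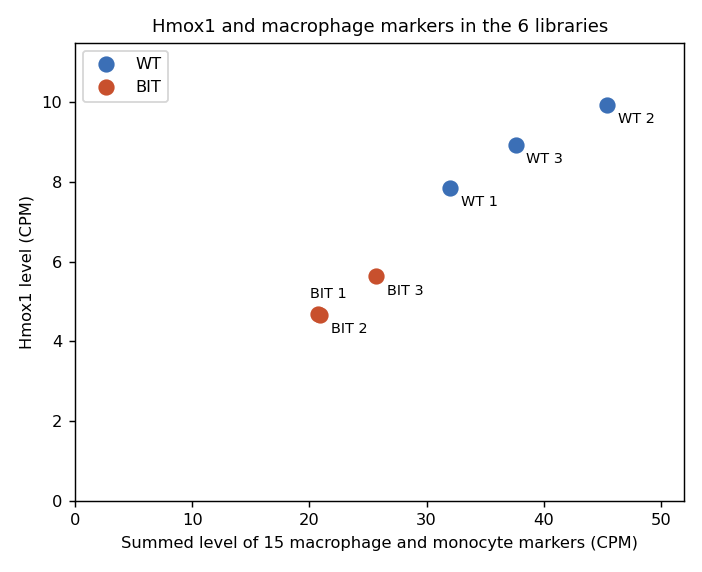
Hmox1 level against the summed level of 15 macrophage and monocyte markers, both in CPM on linear axes from 0, with 1 point per library coloured by genotype. The 3 BIT libraries lie at 20.7 to 25.7 CPM of markers and the 3 WT libraries at 32.0 to 45.4 CPM, with Hmox1 between 4.66 and 5.63 CPM in the former and between 7.86 and 9.95 CPM in the latter.

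The summed levels of the other cell type markers overlapped between the genotypes, although the fold changes of the dendritic cell and B cell lists also leaned lower in BIT. Dendritic cell markers summed to 5.48, 9.76 and 26.0 CPM in WT replicates 1 to 3 and 9.27, 5.30 and 9.60 CPM in BIT replicates 1 to 3. The ratio of means, 0.586, rests on WT replicate 3, in which Itgax alone was at 19.1 CPM. Of the 5 markers tested, 4 had a negative log2 fold change (median -0.24). B cell markers without Ighm summed to 26.4 to 39.5 CPM in WT and 21.3 to 30.3 CPM in BIT, and all 6 markers, Ighm included, had a negative log2 fold change (median -0.31). Neutrophil markers summed to 0.0772 to 2.69 CPM in WT and 0.664 to 2.71 CPM in BIT, and the 2 tested had positive values (median 2.03). Red cell and platelet markers summed to 3.43 to 19.8 CPM in WT and 8.25 to 62.1 CPM in BIT, with 7 of 8 tested positive (median 1.19). CD4 T cell markers summed to 3.38 to 4.87 CPM in WT and 3.01 to 3.77 CPM in BIT, with 2 of 3 negative (median -0.46). In these 5 lists 0 of the tested markers were at an unadjusted p below 0.05 by limma-voom, beside 8.56% of all genes tested. Some of these markers had few counts, such as Cd4 at 8 to 38, so that nothing is read from this count.

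The genes whose profile over the 6 libraries was most like that of Hmox1, among 12508 genes with a mean of at least 1 CPM, were Tspan32, Gm37305, 2310010J17Rik, Mrc1 and Rbak. Their Pearson r with Hmox1 was 0.999, 0.993, 0.992, 0.988 and 0.987 in log2 CPM, and all points share the same 6 libraries and the same division into genotypes. Tspan32, which encodes a tetraspanin of blood cells, was at 1985, 2301 and 1830 counts in WT and 1042, 1009 and 1158 counts in BIT. The log2 fold change was -0.76, at an adjusted p of 0.158 by limma-voom. Mrc1, the mannose receptor of macrophages, was at 135, 189 and 127 counts in WT and 63, 61 and 77 counts in BIT, with a log2 fold change of -0.85 (adjusted p of 0.502 by limma-voom). Within the 6 pathway lists described further on, the most alike were Slc40a1 (r = 0.921), Ggct (0.894), Mgst2 (0.873), Glrx (0.870) and Mgst3 (0.816).

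The regulators of the pathway, Nfe2l2 and Keap1, had overlapping levels in the genotypes. Nfe2l2 was at 63.8, 54.1 and 56.3 CPM in WT and 60.6, 51.4 and 57.7 CPM in BIT, with means of 58.1 ± 5.10 and 56.5 ± 4.74 CPM. The WT and BIT libraries were interleaved, and the log2 fold change was -0.09 (SE 0.0935). Keap1 was at 73.7, 65.1 and 62.6 CPM in WT and 74.9, 75.9 and 60.7 CPM in BIT. Its log2 fold change was 0.02 (SE 0.0916), with the sign depending on the setting. These are RNA levels, whereas NRF2 is controlled mainly through the stability of its protein, which was not measured.

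Gclc and Gclm encode the catalytic and the modifier subunit of glutamate-cysteine ligase, which makes the first and rate-limiting step of glutathione synthesis. Gclc was at 43.0, 36.9 and 32.7 CPM in WT and 39.4, 37.5 and 37.4 CPM in BIT. The 3 BIT libraries lay inside the WT range, and the log2 fold change was -0.01 (SE 0.0967). Gclm was at 15.4, 13.7 and 13.1 CPM in WT and 13.4, 12.7 and 12.5 CPM in BIT, with means of 14.1 ± 1.24 and 12.8 ± 0.469 CPM. The lowest WT library was below the highest BIT library, so that the groups overlapped, and the log2 fold change was -0.11 (SE 0.111).

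Txnrd1 encodes the cytosolic thioredoxin reductase, which keeps thioredoxin reduced with NADPH, and Prdx1 encodes a peroxiredoxin that removes hydrogen peroxide. Txnrd1 was at 68.3, 61.1 and 58.5 CPM in WT and 68.5, 75.8 and 59.7 CPM in BIT, with a log2 fold change of 0.06 (SE 0.092). Prdx1 varied most among these abundant genes, with 95.6, 110 and 71.5 CPM in WT and 96.2, 82.0 and 74.8 CPM in BIT. Its WT mean was 92.2 ± 19.3 CPM and its BIT mean 84.3 ± 10.9 CPM, and the log2 fold change was -0.17 (SE 0.144). All 3 BIT libraries of Prdx1 lay within the WT range, and those of Txnrd1 reached from inside that range to above it. In both genes the difference of the means was smaller than the larger SD.

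Srxn1 and Nqo1, which in many tissues are among the most responsive NRF2 targets, were close to the detection limit in these libraries. Srxn1 encodes sulfiredoxin, which repairs overoxidised peroxiredoxins, and it was at 8, 14 and 9 counts in WT and 1, 0 and 2 counts in BIT. Each BIT library was below each WT library, but the sums were only 31 and 3 counts. Relative to the library totals the BIT rate was 11.2% of the WT rate, with a 95% exact interval of 2.19% to 35.8% that covers counting error alone. Nqo1 encodes a quinone reductase, and it was at 0, 6 and 0 counts in WT and 4, 1 and 1 counts in BIT. With 6 counts in each genotype the rate in BIT was 115% of that in WT, and the interval of 30.9% to 432% leaves no difference detectable at this depth. Neither gene passed the filter on low counts. The summed macrophage markers were lower in the same BIT libraries as Srxn1, at 20.7 to 25.7 CPM against 32.0 to 45.4 CPM in WT, and their part in the Srxn1 difference was not tested.

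Nnt encodes the nicotinamide nucleotide transhydrogenase of the inner mitochondrial membrane, which makes NADPH for the reduction of glutathione and thioredoxin in mitochondria. It is also known as a gene that differs between C57BL/6 substrains, since C57BL/6J mice carry a deletion of several of its exons. The summed counts were 694, 632 and 586 in WT replicates 1 to 3 and 952, 951 and 847 in BIT replicates 1 to 3. All BIT libraries were above all WT libraries, at 22.1 ± 0.979 CPM against 13.4 ± 0.169 CPM (SD, n = 3 each). The ratio of the means was 1.65 and the log2 fold change was 0.73 (SE 0.0933), with 96.1% of all genes tested at a lower value. It was 0.75 without WT replicate 3, 0.74 without BIT replicate 3 and 0.77 with replicates 1 and 2 alone. The summed macrophage markers, at 32.0 to 45.4 CPM in WT and 20.7 to 25.7 CPM in BIT, moved in the opposite direction across the same libraries, and their part in the Nnt difference was not tested.

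The sum hides a division between identifiers that varied from mouse to mouse. The identifier ENSMUSG00000025453.19, which Gencode M39 places at chr13:119470859-119566380 on the minus strand, took 365, 224.5 and 477 estimated counts in WT and 529, 767 and 456 in BIT. The identifier ENSMUSG00000116207.2, which is not in that release, took 329, 408 and 109 counts in WT and 423, 184 and 391 in BIT. The share of the latter was 47.4%, 64.5% and 18.6% in WT and 44.4%, 19.4% and 46.2% in BIT. WT replicate 3 and BIT replicate 2 had the lowest shares, so that the division did not follow genotype. Taken apart, the identifiers had log2 fold changes of 0.99 (SE 0.284) and 0.56 (SE 0.483). These fractional counts are RSEM's division of reads that both identifiers can hold, since the sum was a whole number in every library, and the sum is the quantity that does not depend on it. A gene-level count cannot show which exons the reads came from, and the substrain's part in the Nnt difference was not tested.

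**Figure D4:**
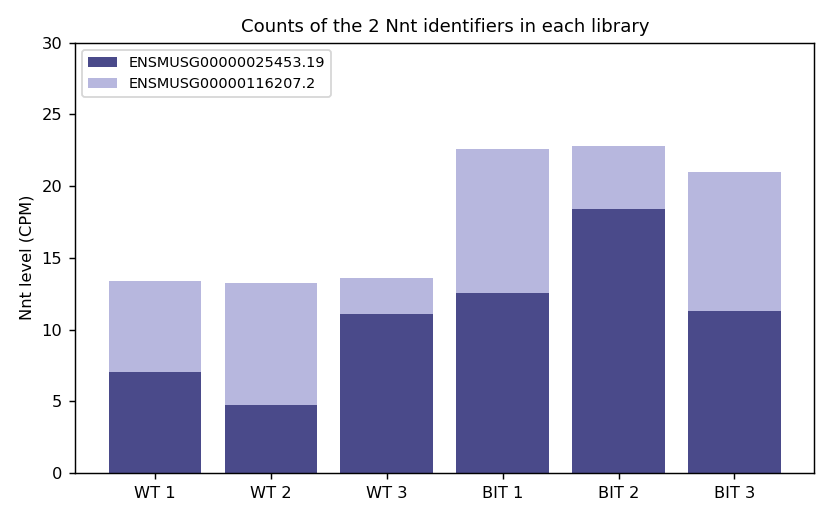
Level of Nnt in each library in CPM, stacked from the 2 identifiers of the table, with WT and BIT libraries side by side and the axis from 0. The summed bars reach 13.3 to 13.6 CPM in WT and 21.0 to 22.8 CPM in BIT, whereas the share of the second identifier ranges from 18.6% to 64.5%.

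Other genes known to differ between C57BL/6 substrains were read beside Nnt. Ide, an insulin-degrading protease, was at 72.3, 96.0 and 99.4 CPM in WT and 77.5, 77.2 and 73.6 CPM in BIT (log2 fold change -0.26, adjusted p 0.645 by limma-voom). Wdfy1 gave a log2 fold change of -0.08 (adjusted p of 0.905 by limma-voom). Entpd4, a nucleotidase of the Golgi apparatus, was at 16.9, 15.4 and 15.7 CPM in WT and 8.25, 11.8 and 13.4 CPM in BIT. All BIT libraries were below all WT libraries for Entpd4, with a log2 fold change of -0.54 (SE 0.169), but the adjusted p was 0.506 by limma-voom.

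The other genes of the pathway were read from 6 lists taken from textbook knowledge, 83 genes in all, of which 76 were tested. By limma-voom 0 of the 76 were at an adjusted p below 0.05, and the count was also 0 by edgeR's quasi-likelihood test and by DESeq2. Without adjustment, 6 of them had p below 0.05 (3 higher and 3 lower in BIT), against 8 by edgeR and 7 by DESeq2. Of all 16104 genes, 8.56% were at an unadjusted p below 0.05 by limma-voom, 4.25% higher and 4.31% lower in BIT. The log2 fold change was positive for 37 and negative for 39 of the 76, with a median of -0.01 beside 0.01 over all genes. The tested genes that did not overlap between groups were 9 higher and 6 lower in BIT, beside 7.38% and 5.97% of all genes tested.

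The list of NRF2 control held 12 tested genes with a median log2 fold change of 0.10 and none at an unadjusted p below 0.05. Bach1, the repressor of Hmox1, was at 36.3 ± 3.35 CPM in WT and 41.3 ± 0.840 CPM in BIT (log2 fold change 0.16, adjusted p 0.653 by limma-voom). Mafk, a small MAF partner of both NRF2 and BACH1, was at 34.9 ± 2.77 and 39.9 ± 2.79 CPM, with a log2 fold change of 0.16 (adjusted p of 0.655 by limma-voom). Cul3, the ligase scaffold that works with KEAP1, was the most abundant of the list, at 179 ± 12.5 and 183 ± 17.1 CPM. The log2 fold change was -0.03, at an adjusted p of 0.937 by limma-voom.

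The list of haem and iron held 14 tested genes with a median of -0.01, and 1 was at an unadjusted p below 0.05. This was Slc40a1, the iron exporter ferroportin, which is abundant in macrophages that recycle iron. It was at 200, 242 and 178 counts in WT and 74, 106 and 129 counts in BIT, so that every BIT library was lower. Its log2 fold change was -0.77 (SE 0.229), with an adjusted p of 0.502 by limma-voom. The summed macrophage markers were also lower in every BIT library, and their part in the Slc40a1 difference was not tested. Hmox1 counts per 100 Slc40a1 counts were 204, 196 and 216 in WT and 268, 183 and 176 in BIT, with overlapping groups. Flvcr1, a haem exporter, gave a log2 fold change of -0.19 (adjusted p of 0.646 by limma-voom). Fth1, the heavy chain of ferritin that stores the released iron, was at 299.6 ± 22.6 CPM in WT and 298 ± 27.1 CPM in BIT, and its log2 fold change was -0.07 (adjusted p of 0.818 by limma-voom).

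The list of glutathione held 14 tested genes of 19, with a median of -0.09. Gsto1, a glutathione transferase of the omega class, was at 8.14 ± 0.638 CPM in WT and 11.0 ± 0.636 CPM in BIT, and its log2 fold change was 0.45 (SE 0.134, adjusted p of 0.502 by limma-voom). Mgst2, a microsomal glutathione transferase, was at 23.9 ± 3.65 and 18.8 ± 1.17 CPM (log2 fold change -0.33, adjusted p 0.577 by limma-voom). These were the list's 2 genes at an unadjusted p below 0.05. Slc3a2, the heavy chain that the cystine transporter shares with amino acid transporters, was the most abundant, at 78.6 ± 4.65 and 88.7 ± 7.07 CPM (log2 fold change 0.12, adjusted p of 0.691 by limma-voom). Slc7a11, the light chain of the cystine transporter and a well known NRF2 target, was at 1, 3 and 3 counts in WT and 2, 2 and 0 counts in BIT, and was not tested.

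The list of thioredoxin held 14 tested genes with a median of 0.03. Sesn3, a stress-induced sestrin, was at 333 ± 24.7 CPM in WT and 403 ± 45.6 CPM in BIT and was the 1 gene of the list at an unadjusted p below 0.05. Its log2 fold change was 0.20 (adjusted p of 0.582 by limma-voom). Sesn1 gave a log2 fold change of -0.16 (adjusted p of 0.639 by limma-voom). Txnip, which binds and inhibits thioredoxin, was the most abundant at 579 ± 26.9 and 616 ± 16.2 CPM (log2 fold change 0.05, adjusted p 0.918 by limma-voom).

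The list of NADPH supply held 13 tested genes with a median of 0.03. Me2, the mitochondrial malic enzyme, was at 79.0 ± 7.95 CPM in WT, and its BIT mean was 127% of this, with a log2 fold change of 0.29 (SE 0.0868, adjusted p of 0.502 by limma-voom). Idh2, the NADP-dependent isocitrate dehydrogenase of mitochondria, was at 40.7 ± 4.04 and 33.3 ± 3.39 CPM, with a log2 fold change of -0.32 (SE 0.0987, adjusted p of 0.506 by limma-voom). Both enzymes lie in mitochondria, as the product of Nnt does. They were the 2 genes of the list at an unadjusted p below 0.05, in opposite directions. Tkt, the transketolase of the pentose phosphate pathway, was the most abundant at 149 ± 11.3 and 148 ± 5.80 CPM (log2 fold change -0.05, adjusted p of 0.870 by limma-voom).

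The list of superoxide and peroxide removal held 9 tested genes with a median of -0.06 and none at an unadjusted p below 0.05. Msra, a methionine sulfoxide reductase, gave a log2 fold change of 0.23 (adjusted p of 0.629 by limma-voom). Oxr1, an oxidation resistance gene, had a value of -0.16 (adjusted p of 0.660 by limma-voom). Ucp2, an uncoupling protein of mitochondria, was the most abundant at 556 ± 44.0 and 516 ± 51.4 CPM (log2 fold change -0.16, adjusted p 0.697 by limma-voom).

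**Figure D5:**
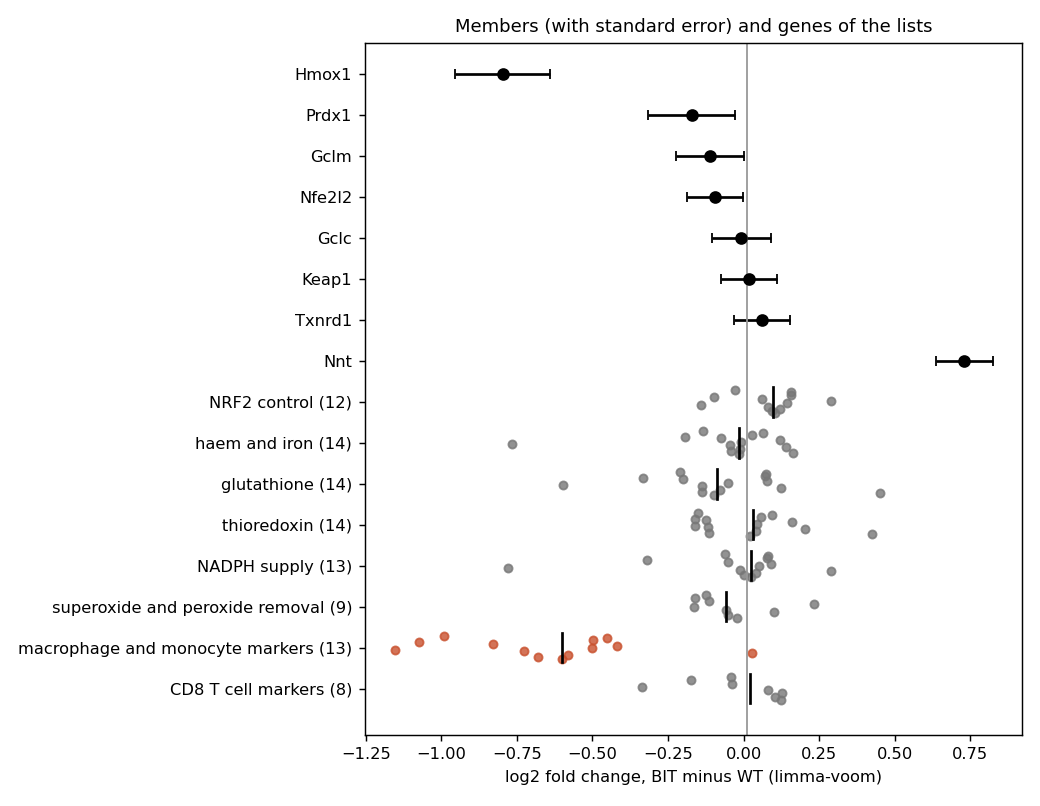
Log2 fold change of BIT minus WT from limma-voom for the 8 members tested, with standard errors, and for the genes of the lists as single points with a black tick at each median, and a grey line at the median of all genes (0.01). Hmox1 (-0.80) and Nnt (0.73) lie at the ends of the members, the 76 pathway genes spread around the line with a median of -0.01, and the macrophage and monocyte markers centre on -0.60.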

How the data were processed

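Sorted T cells of 3 WT mice and 3 BIT mice gave 1 RNA library each, with groups and replicate numbers taken from the labels. The authors deposited RSEM estimated counts for each gene. Per the labels the authors used bcl2fastq, cutadapt 1.18, STAR 2.7.0f and RSEM 1.3.1. Their methods name GRCm39 and an earlier Gencode release than the M39 used here. RNA was depleted of ribosomal RNA and libraries were stranded, but the strand setting of the counting is not given in the sources used here. Of the 10 genes, 8 overlap another gene annotated in Gencode M39, and only Hmox1 and Nqo1 do not. Reads of the others could therefore be divided with a neighbour. Of the values above 0, 84.8% were whole numbers. Estimated counts were rounded, and the Nnt identifiers were summed.

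After filterByExpr (edgeR 4.0.16), quantile-normalised voom values were fitted by lmFit and eBayes of limma 3.58.1 (R 4.3.3). P-values were adjusted by Benjamini-Hochberg over all genes, with a threshold of 0.05. CPM values are scaled by TMM, and fold changes are on the log2 scale of voom. Quantile normalization would hide a shift of most genes in 1 direction. The p-values measure the spread between 3 mice per genotype. Total counts of 37467678 to 52922675 set the counting precision.

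The members and lists were chosen with earlier results of these data known. The text names all members, the substrain genes (Nnt, Wdfy1, Ide and Entpd4), the genes of each pathway list with an adjusted p below 0.05, the 2 smallest p or the highest mean CPM, and the 5 genes closest to Hmox1 by Pearson correlation among all genes at 1 CPM or more and within the pathway lists. Slc7a11 and the marker genes named with their lists were added as examples after their values were seen. The fit was repeated by DESeq2 1.42.0 and edgeR's quasi-likelihood test, and with TMM normalization, without a filter, at a mean of at least 1 CPM, and with quality weights, a replicate block, replicate 3 as a batch, replicates 1 and 2 alone, each library left out, and the Nnt identifiers apart. On simulated counts with 2-fold changes in 200 genes for the comparison of 3 BIT and 3 WT libraries, 91.5% of these were found. Of the calls, 4.19% were false, over 15916 genes. With 4-fold changes, also in 200 genes, 99% of these were found and 7.91% of calls were false, over 15942 genes. Recovery at folds below 2, or with fewer changed genes, was not tested. Sequences and positions were read from GRCm39 with Gencode M39, and the letters GCTGAGTCA were settled on after searches with longer forms of the element had been seen.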

Additional observations from a re-analysis of the deposited data

How the results depend on the processing

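The log2 fold change of Hmox1 was negative under all 16 settings, main setting included, from -0.89 to -0.71, and that of Nnt, with its identifiers summed, was positive under all, from 0.71 to 0.77. Nnt was among the genes at an adjusted p below 0.05 in 10 of these settings and Hmox1 in 1 of them, DESeq2. With the Nnt identifiers fitted apart, which is not among the 16, the values were 0.99 and 0.56 and neither identifier was at an adjusted p below 0.05. Nfe2l2, Gclm and Prdx1 had negative values under all 16 settings, whereas the sign of Keap1, Gclc and Txnrd1 depended on the setting (3, 11 and 1 of 16 negative). The count of pathway genes at an adjusted p below 0.05 was 0 under every setting run. The count of all genes at that threshold, 23, moved to 129 by DESeq2, 15 without a filter on low counts, 46 with replicate 3 as a batch and 75 with replicates 1 and 2 alone. Leaving out 1 library gave between 1 and 38 genes, with 1, 4 and 38 without WT replicate 1, 2 or 3 and 9, 2 and 11 without BIT replicate 1, 2 or 3. The cause was not tested. Same-numbered WT and BIT libraries deviated together with correlations of 0.139, 0.0259 and 0.333, and differently numbered ones with -0.298 to 0.244. The highest value was thus that of replicate 3 in both genotypes. The numbers were not taken as pairs. The fit with the replicate block gave 22 genes and a log2 fold change of -0.80 for Hmox1. Depth limits Srxn1 and Nqo1, for which a few counts decide the ratio.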
